A study of Mus musculus with 8 samples.

Results

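The 10 transcripts described here make up the core of the integrated stress response in BMEL cells, a bipotential cell line derived from embryonic mouse liver. They encode the transcription factors ATF4, CHOP (Ddit3), ATF3, ATF5 and C/EBP gamma (Cebpg), the feedback regulators GADD34 (Ppp1r15a) and TRIB3, and the effectors CHAC1, sestrin 2 (Sesn2) and NUPR1. All 10 symbols were found among the 18671 genes of the deposited expression values. The 10 genes were chosen by name along the ATF4 and CHOP axis, and they were selected on earlier results of the same comparison, so that their differences between the 2 groups are given as a description and without a test.

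The study asked how the epithelial transcription factor GRHL2 changes the transcriptome of liver cells. RNA-seq was performed on total RNA of 8 samples harvested 48 h after transfection. In the GRHL2 group (n = 4), cells received a plasmid that codes for human GRHL2 with a Flag tag under the EF1A promoter and, on the same transcript, enhanced green fluorescent protein. In the control group (n = 4), cells received the pcDNA3 vector. All 8 samples shared the BMEL line, the growth medium with serum, IGFII, EGF and insulin, the collagen coating and the transfection itself. The plasmids thus differed by more than GRHL2, and no untransfected sample was analysed here. Replicates were numbered 1 to 4 in each group, and p-values given below measure the spread between these samples.

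The integrated stress response starts when kinases that sense misfolded protein in the endoplasmic reticulum, amino acid shortage, double-stranded RNA or heme shortage phosphorylate the translation factor eIF2 alpha. General translation then falls while the ATF4 mRNA is translated more, and ATF4 induces genes for amino acid supply, tRNA charging and redox defence. Its targets include the gene for CHOP, which under lasting stress favours cell death, and the gene for GADD34, which brings protein phosphatase 1 to eIF2 alpha and so closes the loop. In liver, this pathway is known for its response to secretory load, dietary amino acids and toxins. The values below are transcript levels, and neither eIF2 alpha phosphorylation nor ATF4 protein was measured in the values used here.

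Many genes of this pathway carry a C/EBP-ATF response element, a composite site bound by dimers of ATF4 with a C/EBP protein. The core of this element (TGATGNAAN, read on both strands) was looked for in the RefSeq promoter windows of GRCm38.p6, which span 250 bases before to 50 bases after each gene's start. As the 10 genes were chosen along the ATF4 and CHOP axis, nothing is read from the following count. The core was found in 4 of the 10 genes, Atf3, Chac1, Nupr1 and Trib3, against 4.50% of 27025 genes. The stretches that hold it are given because they are the sequence feature that these 4 genes share, each read 5′ to 3′ on the strand of its gene, with the match in capitals.
Atf3: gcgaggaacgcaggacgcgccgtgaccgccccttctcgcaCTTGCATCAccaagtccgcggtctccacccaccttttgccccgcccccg
Chac1: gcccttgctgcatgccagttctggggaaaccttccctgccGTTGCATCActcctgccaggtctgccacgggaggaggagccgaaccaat
Nupr1: aaagggccagATTGCATCAgacagggctt
Trib3: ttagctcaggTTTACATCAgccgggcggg

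The Atf3 stretch lies at chr1:191183396-191183484 on the minus strand, and its match, 111 to 103 bases before the RefSeq start, is intronic in GENCODE M21, in which a longer Atf3 transcript starts further upstream. The Chac1 stretch (chr2:119351008-119351096, plus strand) holds its match 194 to 186 bases before the start, outside the annotated gene. In Nupr1 (chr7:126625563-126625591, minus strand), the match is again 111 to 103 bases before the RefSeq start and falls in an exon of the longer GENCODE gene. The Trib3 match (stretch at chr2:152344029-152344057, minus strand) begins 13 bases after the RefSeq start, just outside the GENCODE gene. All 4 matches read in the same orientation relative to their gene, with the reverse complement of the core on the gene's strand. With its last letters dropped (TGATGNA, which includes every match of the longer form), Atf5 was added, so that 5 of the 10 genes matched, against 13.8% of all genes. Nothing is read from this count either.

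Another element, the cyclic AMP response element (TGACGTCA, its own reverse complement), was found in 1 of the 10 genes, Ppp1r15a, and in 2.03% of all genes. It lies 12 to 5 bases before the start, outside the annotated gene, in the following stretch (chr7:45526269-45526320, minus strand, match in capitals), shown because Ppp1r15a had the largest difference of the 10 genes.
Ppp1r15a: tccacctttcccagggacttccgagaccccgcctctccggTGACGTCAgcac

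Neither a Grainyhead site (AACCGGTT, its own reverse complement, 0.174% of all genes) nor an endoplasmic reticulum stress element (CCAAT, 9 bases and CCACG, either strand, 0.137% of all genes) was found in these windows of the 10 genes. Such matches describe letters within 300 bases and say nothing of binding.

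All values were read as log2 levels per transcript length, and differences are GRHL2 minus control on that log2 scale. The order of the genes and all levels on the linear scale rest on this reading. The 10 transcripts were well expressed in control cells, from percentile 61.3 of all genes for Chac1 to percentile 97.9 for Atf4. Atf4 stood first with 12.08 ± 0.05 (SD, n = 4), 3.56-fold above Atf3 on the linear scale, with no overlap of the samples. Atf3 (10.25 ± 0.29), Ppp1r15a (10.10 ± 0.33) and Ddit3 (9.87 ± 0.14) followed, and neighbours in this order overlapped. Cebpg (9.62 ± 0.07) and Trib3 (9.47 ± 0.04) lay below them and did not overlap each other. Atf5 (8.59 ± 0.11) and Sesn2 (8.44 ± 0.10) overlapped, and Nupr1 (8.01 ± 0.17) and Chac1 (7.71 ± 0.05) closed the order without overlap.

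**Figure D1:**
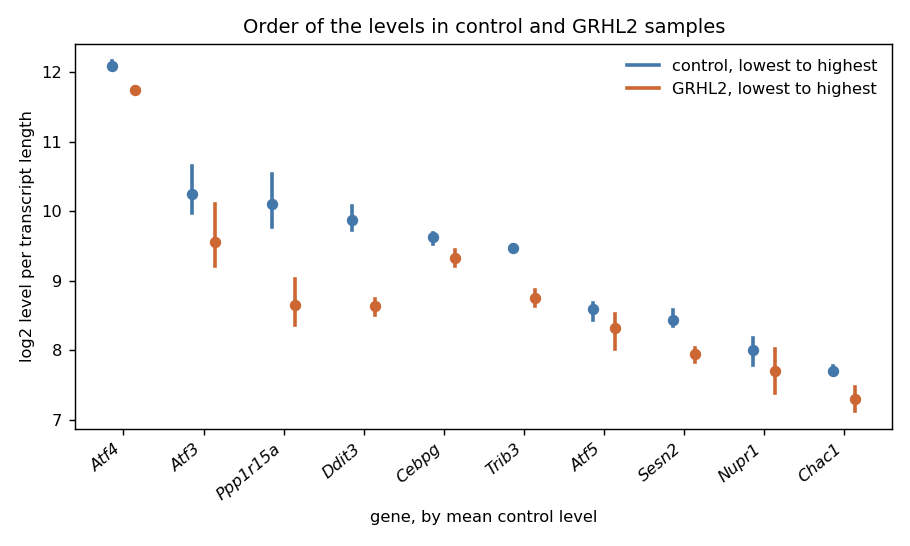
Mean log2 level per transcript length (points) and the range from the lowest to the highest of 4 samples (lines) for each of the 10 genes, in control and GRHL2 samples, ordered by the control mean. Atf4 stands apart at 12.08 in control samples and 11.74 in GRHL2 samples. Ppp1r15a and Ddit3 drop from the third and the fourth place to means below Cebpg and Trib3, although their GRHL2 samples overlap those of Trib3.

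All 10 transcripts had a lower mean in the GRHL2 samples on the log2 scale, with differences from -1.45 to -0.28 and a median difference of -0.45 beside a median of 0.0066 over all genes. The difference was below 0 in 40 of 40 same-numbered pairs of samples. In 7 of the 10 genes all 4 GRHL2 samples were below all 4 control samples, a pattern found in 9.47% of all genes, whereas Atf3, Atf5 and Nupr1 overlapped. As the genes were selected on this comparison, nothing is read from these counts. In bulk samples such as these, fewer cells with a transcript and less of it per cell cannot be told apart.

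**Figure D2:**
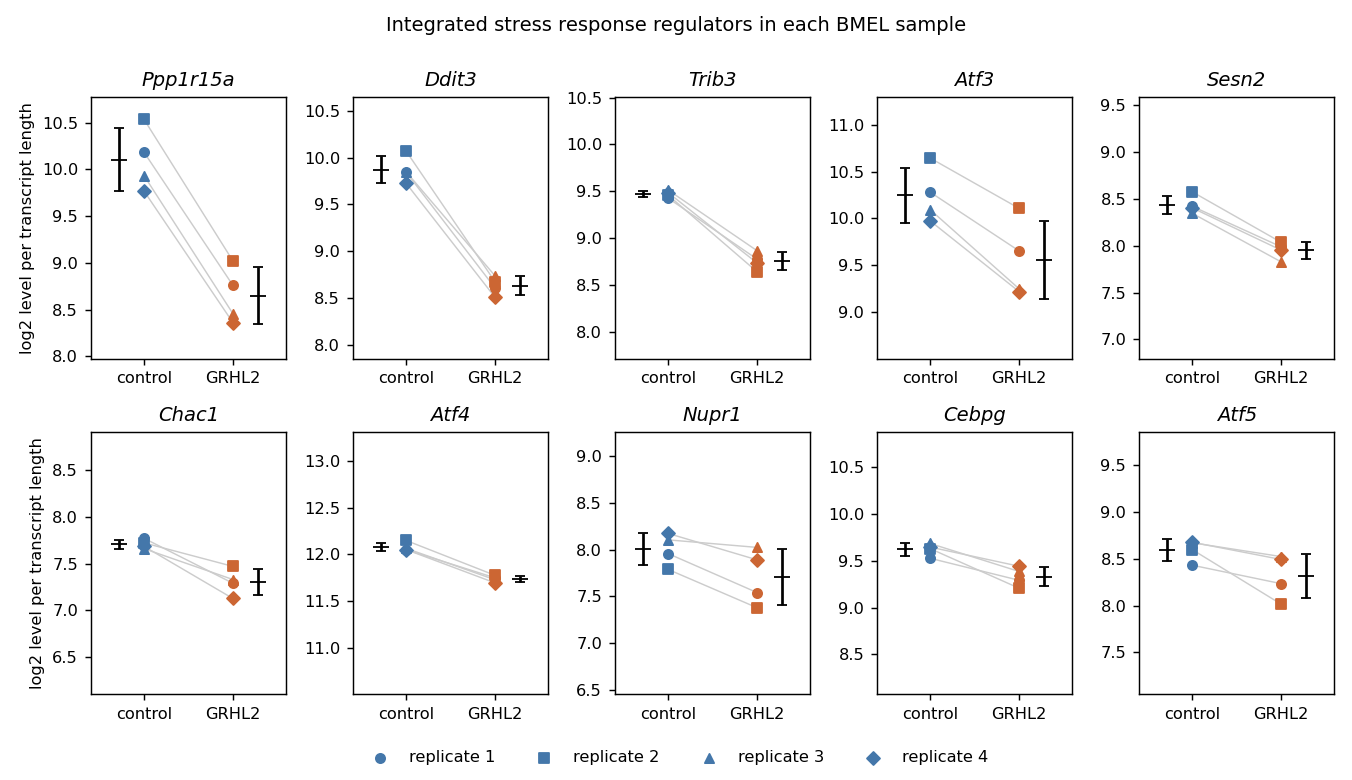
Log2 level per transcript length of each gene in the 4 control (blue) and 4 GRHL2 (orange) samples, with same-numbered replicates joined, and mean ± SD as bars beside the points; all panels span the same number of log2 units. Every line falls, most steeply for Ppp1r15a and Ddit3, and the groups overlap for Atf3, Atf5 and Nupr1.

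Among the transcription factors, Ddit3 differed most. Ddit3 (chr10:127290774-127296288, plus strand, GRCm38) encodes CHOP, a C/EBP family protein that is low in unstressed cells. Its level was 9.84, 10.07, 9.85 and 9.73 in control replicates 1 to 4 and 8.61, 8.67, 8.74 and 8.51 in GRHL2 replicates 1 to 4. The groups were far apart, with 0.99 between the lowest control and the highest GRHL2 sample. The mean difference was -1.24 ± 0.12 (SD of 4 pairs), that is 42.3% of the control level on the linear scale, and only 4 of the 18671 genes had a lower difference. Reads were counted without regard to strand, and 68 of the 1713 exon bases of Ddit3 (3.97%) are shared with Mars (Mars1), the methionyl-tRNA synthetase gene on the opposite strand, whose own difference was -0.16. A second annotated gene named Ddit3 on the same strand (chr10:127290829-127293753) shares 105 of the exon bases (6.13%). How reads on shared bases entered the value was not examined.

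Atf4 (chr15:80255184-80257541, plus strand) encodes the factor whose translation the pathway controls. It measured 12.05, 12.15, 12.07 and 12.05 in the control replicates and 11.75, 11.78, 11.73 and 11.70 in the GRHL2 replicates. Control replicate 2 was the highest of the 8 samples, and a gap of 0.27 separated the groups, which were each tight. The difference was small and even, -0.30, -0.37, -0.34 and -0.36 in pairs 1 to 4 (mean -0.34 ± 0.03), and left 78.9% of the control level.

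Atf3 (chr1:191170296-191218039, minus strand) is a stress-induced factor of the ATF and CREB family. Its level was 10.28, 10.65, 10.09 and 9.97 in control samples and 9.65, 10.11, 9.25 and 9.22 in GRHL2 samples. GRHL2 replicate 2 was above control replicates 3 and 4, so the groups overlapped, although each GRHL2 sample was below the control sample of its own number. The pair differences were -0.63, -0.54, -0.85 and -0.76 (mean -0.69 ± 0.14), with 61.9% of the control level left.

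Atf5 (chr7:44812256-44816658, minus strand) encodes a relative of ATF4 that is likewise controlled by translation and is known from the mitochondrial stress response. It measured 8.43, 8.60, 8.67 and 8.68 in the control replicates and 8.23, 8.02, 8.52 and 8.49 in the GRHL2 replicates. GRHL2 replicates 3 and 4 were above control replicate 1, and GRHL2 replicate 2 was the lowest sample. Its mean difference of -0.28 ± 0.20 was the smallest of the 10, and pair 2 with -0.58 stood apart from the other 3 pairs, which lay between -0.20 and -0.15. Atf5 shares 82 of its 1993 exon bases (4.11%) with Il4i1 on the opposite strand, whose difference was 0.06, and equally many with Nup62 on that strand, for which no value was matched.

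Cebpg (chr7:35046422-35056573, minus strand) encodes C/EBP gamma, a dimer partner of ATF4. Its control values were 9.53, 9.63, 9.68 and 9.65 and its GRHL2 values 9.29, 9.21, 9.39 and 9.44. The groups did not overlap, but only 0.08 lay between control replicate 1 and GRHL2 replicate 4. The mean difference was -0.29 ± 0.10, with 81.8% of the control level left.

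Of the feedback regulators, Ppp1r15a (chr7:45522916-45526268, minus strand) encodes GADD34, the stress-induced subunit that directs protein phosphatase 1 to eIF2 alpha. It measured 10.18, 10.53, 9.93 and 9.77 in the control replicates and 8.76, 9.02, 8.46 and 8.36 in the GRHL2 replicates. Replicates ranked 2, 1, 3 and 4 from high to low in both groups, and the groups were 0.75 apart. Its difference, the largest of the 10, was -1.42, -1.51, -1.48 and -1.41 in the 4 pairs. The pairs thus varied less (mean -1.45 ± 0.05) than the samples of either group, whose SD was 0.33 in control and 0.30 in GRHL2 samples, and 36.5% of the control level was left.

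Trib3 (chr2:152337422-152344032, minus strand) encodes a pseudokinase that is induced by ATF4 and CHOP and binds both ATF4 and AKT. Control samples lay at 9.43, 9.46, 9.51 and 9.48 and GRHL2 samples at 8.77, 8.64, 8.86 and 8.73. Control samples were nearly alike, all GRHL2 samples were lower, and the groups were 0.56 apart. The mean difference was -0.72 ± 0.08, leaving 60.8% of the control level.

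The remaining members are effectors. Sesn2 (chr4:132492032-132510501, minus strand) encodes sestrin 2, which restrains mTORC1 when leucine is short. It measured 8.42, 8.58, 8.35 and 8.40 in control samples and 7.99, 8.04, 7.83 and 7.95 in GRHL2 samples. The groups were 0.31 apart, replicate 2 was the highest and replicate 3 the lowest in both, and the mean difference was -0.49 ± 0.05 (71.4% of the control level).

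Chac1 (chr2:119351229-119354381, plus strand) encodes a gamma-glutamylcyclotransferase that degrades glutathione. Its level was 7.77, 7.72, 7.66 and 7.68 in the control replicates and 7.29, 7.47, 7.33 and 7.13 in the GRHL2 replicates. The lowest control sample was 0.19 above GRHL2 replicate 2, the highest of its group. Pair differences were uneven, from -0.56 in pair 4 to -0.25 in pair 2 (mean -0.40 ± 0.14), with 75.5% of the control level left.

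Nupr1 (chr7:126623249-126630861, minus strand) encodes a small chromatin protein induced by many stresses. It measured 7.96, 7.79, 8.10 and 8.17 in control samples and 7.54, 7.38, 8.02 and 7.89 in GRHL2 samples. GRHL2 replicate 3 was above control replicates 1 and 2, and GRHL2 replicate 4 above control replicate 2. The difference in pair 3 was only -0.08, against -0.42, -0.41 and -0.28 in pairs 1, 2 and 4 (mean -0.30 ± 0.16).

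**Figure D3:**
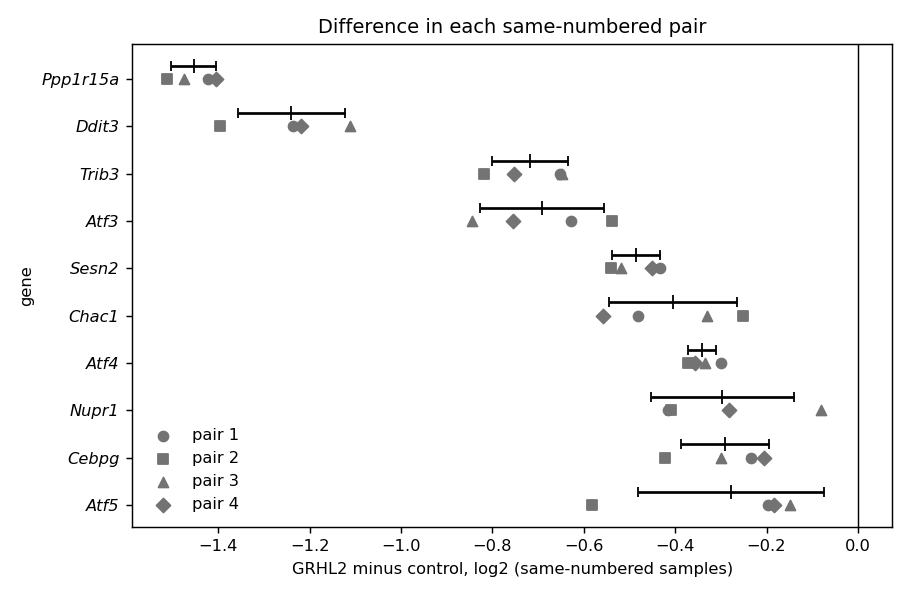
GRHL2 minus control on the log2 scale in each of the 4 same-numbered pairs (symbols) with mean ± SD (bars) for each gene, ordered by the mean. Every pair lies below 0, from -1.51 for Ppp1r15a in pair 2 to -0.08 for Nupr1 in pair 3, and Ppp1r15a and Ddit3 do not overlap the other 8 genes.

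The replicates did not move alike in all genes. Control replicate 2 was the highest control sample for 5 of the 10 genes (Ddit3, Ppp1r15a, Atf3, Atf4 and Sesn2). GRHL2 replicate 2 was the lowest GRHL2 sample for 4 (Atf5, Trib3, Nupr1 and Cebpg) and the highest for 5 (Ppp1r15a, Atf3, Atf4, Chac1 and Sesn2). In 3 genes, Ppp1r15a, Atf3 and Sesn2, the 4 replicates had the same order in both groups.

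The genes whose 8 gene-centred values were nearest to those of Ddit3, by the root mean square of the difference on the log2 scale, were Cxcl10 (0.101), an interferon-induced chemokine, Ifit3b (0.159), an interferon-induced gene, Arrdc4 (0.187) and Txnip (0.195), both glucose-responsive arrestin family genes, and Hmox1 (0.195), which encodes heme oxygenase. The median over 18661 genes, the 10 members left out, was 0.635. Cxcl10 measured 7.11 ± 0.15 in control and 5.98 ± 0.06 in GRHL2 samples. Of the other members, Ppp1r15a (rank 12) and Trib3 (rank 24) were nearest to Ddit3. For Atf4, the nearest were Arl9 (0.024), Aars (0.027), the alanyl-tRNA synthetase gene, Fpgt (0.037), Rchy1 (0.039) and Rxylt1 (0.040), against a median of 0.185, and its nearest member was Chac1 (rank 464). This likeness contains the difference between the groups and is a description over 8 samples.

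The rest of the pathway was followed in 7 lists of 109 measured genes that hold none of the 10 members. Here limma's moderated test with Benjamini-Hochberg adjustment was fitted over all 18671 genes without a block. At an adjusted p under 0.05, 29 of the 109 genes were called lower and 5 higher, with a median difference of -0.09. Over all genes, 5.91% were lower and 10.5% higher, with a median of 0.0066. With the replicate number as a block, 50 were lower and 9 higher (13.9% and 18.2% of all genes). The lists were drawn up with earlier results of these samples known, so they are not independent evidence of a direction.

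**Figure D4:**
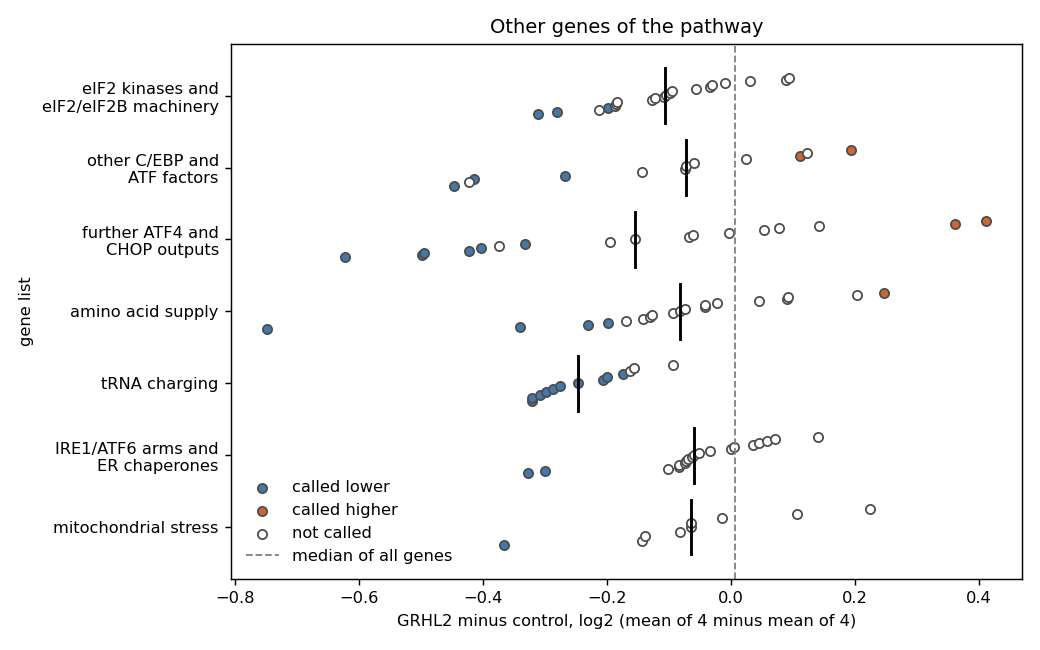
GRHL2 minus control on the log2 scale (mean of 4 minus mean of 4) for each gene of the 7 lists (circles), with genes called lower in blue, called higher in orange and not called in white, the median of each list as a black bar and that of all genes as a dashed line. The tRNA charging list has 10 of 13 genes called lower and no gene above 0, whereas the other 6 lists have genes on both sides of 0.

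Upstream of ATF4, 1 of the 4 eIF2 alpha kinase transcripts passed the test. Eif2ak3, which encodes the endoplasmic reticulum kinase PERK, measured 8.23, 8.26, 8.12 and 8.12 in control and 7.93, 7.98, 8.08 and 7.96 in GRHL2 samples. All GRHL2 samples were lower, and the difference was -0.20 (SE 0.054, adjusted p = 0.0329). Its adjusted p was between 0.0601 and 0.0947 without GRHL2 replicate 1, 2 or 4 or control replicate 1 or 2. The other 3 kinases did not pass the test, with differences of -0.03 for Eif2ak1 (HRI, adjusted p = 0.750), -0.12 for Eif2ak2 (PKR, adjusted p = 0.217) and -0.10 for Eif2ak4 (GCN2, adjusted p = 0.221). In the list of 20 kinases, regulators, eIF2 and eIF2B subunits and phosphatase subunits, 3 were called lower and none higher (median -0.11). These were Eif2ak3, Impact, an inhibitor of GCN2 activation (-0.31, adjusted p = 0.0224), and Eif2s2, the eIF2 beta subunit (-0.28, adjusted p = 0.0411). The count rose to 9 with the replicate block and fell to 1 without GRHL2 replicate 1, 2 or 4 or control replicate 1 or 2.

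Among 12 other C/EBP and ATF factors, 3 were called lower and 2 higher (median -0.07). Atf6, the membrane-bound sensor of the endoplasmic reticulum, fell by 0.45 (SE 0.070, adjusted p = 0.00253), Cebpb, a liver C/EBP protein, by 0.41 (SE 0.044, adjusted p = 0.000362), and Atf1, a CREB family factor, by 0.27 (adjusted p = 0.0156). Cebpd rose by 0.19 (adjusted p = 0.00228) and Batf3 by 0.11 (adjusted p = 0.0417), both from levels near 2.9, where the authors' transformation shrinks differences. The spread within groups is shrunk there as well, and the control SD was 0.02 for Cebpd and 0.01 for Batf3. With the block, 5 were lower, and 1 rather than 2 was higher without GRHL2 replicate 1 or 2 or any 1 of the 4 control replicates.

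Of 18 further outputs of ATF4 and CHOP, 17 were measured (Fgf21 was not analysed here), and 6 were called lower and 2 higher (median -0.15). Of those called lower, the 3 with the largest decrease encode proteins of the cell death and damage response, Pmaip1 (NOXA, -0.62, SE 0.144, adjusted p = 0.0169), Gadd45a (-0.50, SE 0.099, adjusted p = 0.00871) and Bbc3 (PUMA, -0.49, SE 0.080, adjusted p = 0.00293). Sqstm1 (p62), Herpud1 and Gdf15, named after their values were seen, fell by 0.42, 0.40 and 0.33. Bcl2l11, which encodes the death-promoting protein BIM, rose by 0.36 (SE 0.054, adjusted p = 0.0019), and Stc2, a secreted glycoprotein gene, by 0.41 (SE 0.065, adjusted p = 0.00254). The control mean of Stc2 was low, at 3.28, where the authors' transformation likewise shrinks differences and spread. In both Bcl2l11 and Stc2, the lowest GRHL2 sample exceeded the highest control sample, a pattern found in 14.3% of all genes, so this list held called genes of either direction.

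Among 19 genes of amino acid supply, 4 were called lower and 1 higher (median -0.08). Slc7a11, the cystine and glutamate exchanger, measured 7.59, 7.91, 7.60 and 7.62 in control and 6.94, 6.69, 7.07 and 7.02 in GRHL2 samples. The groups were well apart, with a difference of -0.75 (SE 0.097, adjusted p = 0.000992), the largest of the 109 genes. Its partner chain Slc3a2 fell by 0.34 (SE 0.062, adjusted p = 0.00548), Asns, the asparagine synthetase gene, by 0.23 (adjusted p = 0.0271, 1 GRHL2 sample level with the lowest control sample), and Mthfd2, a mitochondrial folate enzyme named after its values were seen, by 0.20 (adjusted p = 0.0354). Asns lost its call in 6 and Mthfd2 in 7 of the 8 fits with 1 sample left out. Slc1a5, a glutamine carrier, rose by 0.25 (SE 0.061, adjusted p = 0.0224). With the block, 9 were lower and 2 higher. Only 2 were lower without GRHL2 replicate 2 or 4 or control replicate 1, 3 or 4, and none was higher without GRHL2 replicate 1, 3 or 4 or control replicate 1.

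Of 13 genes of tRNA charging (12 cytosolic tRNA synthetases and the tRNA exporter gene Xpot), 10 were called lower, none higher, and the median difference was -0.25. With the block, 12 were lower, and 7 were lower without GRHL2 replicate 3 or 4 or control replicate 1. Aars measured 12.01, 12.16, 12.00 and 11.99 in control and 11.75, 11.76, 11.73 and 11.64 in GRHL2 samples, without overlap, a difference of -0.32 (SE 0.050, adjusted p = 0.00249). Yars (-0.32, SE 0.049, adjusted p = 0.00236) and Lars (-0.31, SE 0.059, adjusted p = 0.0073) came next, and the other 7 genes called lower fell by 0.17 to 0.30. The 3 that did not pass, named after their values were seen, were Mars1 (-0.16), Sars (-0.16) and Wars (-0.09), and of these Mars1 (adjusted p = 0.0115) and Sars (adjusted p = 0.00596) passed with the block. In 12 of the 13 genes, all GRHL2 samples were below all control samples, as in 9.47% of all genes. The core of the C/EBP-ATF response element was found in 5 of the 9 genes of this list with a promoter window, against 4.50% of all genes. It was found in 4 of 15 genes of amino acid supply and 2 of 13 further outputs. The eIF2 list held it in 1 of 15 genes, the C/EBP and ATF factors in 1 of 10 and the mitochondrial list in 0 of 7. The tRNA charging and amino acid lists were chosen as known ATF4 targets, so nothing is read from these counts.

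Of 19 genes of the IRE1 and ATF6 arms of the unfolded protein response, 2 were called lower and none higher (median -0.06). They were Dnajb9, a co-chaperone gene (-0.33, SE 0.061, adjusted p = 0.00626), and Hspa5, which encodes the chaperone BiP (-0.30, SE 0.064, adjusted p = 0.0118). With the block, 4 were lower and 1 higher. In this list, 7 of 17 genes with a promoter window held the endoplasmic reticulum stress element, against 0.137% of all genes, and none held the C/EBP-ATF response element. The genes were listed for these arms, so nothing is read from this count. Of 9 genes of mitochondrial chaperones and proteases, only Hspa9, the mitochondrial HSP70 gene, was called lower (-0.37, SE 0.077, adjusted p = 0.0114). None was called higher, against 3 lower and 2 higher with the block. That these lists differ from each other was not tested.

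As a check of the labels, Grhl2 rose from 4.53 ± 0.12 to 6.24 ± 0.55 (1.71, SE 0.222, adjusted p = 0.0010), without overlap of the groups. The gene counted is the mouse gene, and how many reads of the human cDNA were counted on it is unknown. All 12 markers of liver epithelial cells were measured, from 15.31 for Krt8 to 5.25 for Alb in control samples. Their summed level, on the log2 scale, was 16.73 to 16.93 in control and 16.94 to 17.08 in GRHL2 samples, with Krt7, Cdh1 and Foxa1 called higher and Afp lower. The sum was taken over linear values and is carried mostly by Krt8, Krt19 and Krt18, none of which was called. Of 10 markers of leukocytes, endothelium and stromal cells, 9 were measured. In control samples they ran from -0.23 for Pdgfrb, 0.80 for Acta2, 0.90 for Ptprc and 1.23 for Cdh5 to 5.22 for Col1a1 and 6.08 for Cd68. Of these 9, Pdgfrb was called higher (0.11, adjusted p = 0.00886). Its control level stood at percentile 3.73 of all genes, where the authors' transformation shrinks differences and spread alike. The summed level of these 9 was 7.01 to 7.19 in control and 7.15 to 7.27 in GRHL2 samples, and the groups overlapped. The part of these shifts in the values of the 10 genes was not tested.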

How the data were processed

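Paired-end RNA-seq was performed on 8 BMEL samples, 4 per plasmid, and groups and replicate numbers were taken from the labels. The deposited values were read as log2 values, although named for FPKM by the authors: they run from -2.85 to 18.01, 4.81% are below 0 and none is missing. The submitters' processing notes name HISAT2 2.2.1, HTSeq 0.9.1, DESeq2 1.40.2, mm10 and GRCm39. According to the methods, reads were counted on exons of either strand, and genes below 10 reads in all were removed. Regularized log values were divided by mean transcript length. That description opens with public data and was assumed to cover these samples. The values were read as regularized log less log2 length. Had they been divided as worded, differences would scale with gene length, and the percentages, folds, gene order and likeness given here would not hold. The transformation shrinks differences of genes with few reads, and read depth is unknown, so that no counting interval is given.

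The test across all 18671 genes used limma 3.58.1 (R 4.3.3) with a linear model of 2 groups (mean-variance trend, two-sided, Benjamini-Hochberg adjustment, threshold 0.05). On simulated data, limma called 87 of 100 genes changed by 0.5 on the log2 scale, 99 of 100 changed by 1 and 13 of 18471 unchanged genes. The simulated samples varied independently, without the deviations by replicate number described below, and no change smaller than 0.5 was included. These rates therefore may not hold for the real samples or for smaller differences. Alternatives comprised scaling to an equal upper quartile or to an equal sum of linear values, the replicate number as a block, no mean-variance trend, a mean value of at least 1, each sample left out in turn and a shorter response element. Same-numbered samples deviated together from their group means (Pearson's r across genes 0.47 to 0.64 in the 4 pairs, over 0.1 in each). For different numbers r was -0.61 to 0.60, with replicates 1 and 2 and replicates 3 and 4 also deviating together. The numbers of the labels were taken to pair the samples, although these overlapping ranges do not single out the same-numbered pairs. The SEs and adjusted p-values given without mention of the block come from the model that leaves this pairing out.

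Of the marker genes planned, 1 is not reported here. The members and all gene lists were chosen with earlier results of these data known. Named were the 10 members, Grhl2, the eIF2 alpha kinases, in each list up to 3 called genes with the largest decrease and 3 with the largest increase, and for Ddit3 and Atf4 the 5 nearest genes. Positions are those of GENCODE M21 (GRCm38), and promoters were matched by symbol to RefSeq, which held all 10 members.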

Additional observations from a re-analysis of the deposited data

Results flagged for a closer look

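In 5 of 74 groups of 4 samples (each named gene in each group), 1 sample lay far from the other 3, by the gap to its nearest neighbour as a share of the group's range, which chance gives in about 1 in 20 groups. Of the 10 members, this was so for Atf4 alone, with control replicate 2 at 12.15 and the next sample at 12.07. Control replicate 2 was also far above the others for Bbc3 (9.66, next 9.33), Slc7a11 (7.91, next 7.62) and Aars (12.16, next 12.01). For Atf1, GRHL2 replicate 1 was the high sample, at 10.69 with the next at 10.57.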

How the results depend on the processing

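All 10 member differences remained below 0 under both other scalings and with each sample left out, with Ppp1r15a between -1.58 and -1.31, Ddit3 between -1.29 and -1.17, Nupr1 between -0.40 and -0.19 and Atf5 between -0.35 and -0.18 over the samples left out. An equal upper quartile and an equal sum raised the median of all genes from 0.0066 to 0.029 and 0.031, and the share of higher among called genes from 63.9% to 75.9% and 77.0%. The equal upper quartile gave 3064 higher genes in place of 1957. None of the 10 members or the 38 genes tested singly changed its sign in any setting run.

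With the replicate block, 2589 genes were lower and 3396 higher, 50 and 9 of the 109 pathway genes, 9 lower for eIF2 kinases and machinery, 5 lower for C/EBP and ATF factors, 9 lower and 2 higher for amino acid supply, 4 and 1 for the IRE1 and ATF6 arms, and 3 and 2 for mitochondrial stress. The block changed the call of none of the 38 genes tested singly. Without the mean-variance trend, 1 C/EBP or ATF factor was higher rather than 2.

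With each sample left out, 690 to 1036 genes were lower and 1326 to 1848 higher, the lowest counts of lower genes being 722, 690, 719 and 691 without GRHL2 replicate 1, 3 or 4 or control replicate 1. Of the 109 pathway genes, 22 to 29 were lower and 3 to 5 higher, with 3 without GRHL2 replicate 1 or control replicate 1. The ranges were 1 to 4 lower for eIF2 kinases and machinery, 1 to 2 higher for C/EBP and ATF factors, 2 to 4 lower and 0 to 1 higher for amino acid supply, and 7 to 11 lower for tRNA charging. Eif2ak3 missed the threshold with an equal sum (adjusted p = 0.0509), Mthfd2 narrowly with an equal upper quartile, and Eif2s2 (0.0590) and Batf3 (0.0600) without the trend. With 1 sample left out, 10 of these 38 genes lost their call at least once, namely Asns, Batf3, Eif2ak3, Eif2s2, Gars, Iars, Impact, Mthfd2, Slc1a5 and Tars. Fewer samples were fitted with 1 left out; the cause of the other shifts was not tested. The depth behind each value is unknown.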
